A study of Mus musculus with 6 samples.

Results

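Complement and coagulation are the main protease cascades of blood plasma, and 47 genes of these cascades were followed in mouse liver. Members were taken from a list of complement components, complement receptors, clotting factors and their regulators, and a member counted as measured where a probe set of the array carried its symbol alone. That held for 43 of the 47 genes, among 19938 genes in all. C3, Cfd and Cpb2 were not listed in the platform's annotation, and the probe set of Klkb1, which encodes plasma prekallikrein, was listed with a further gene symbol, so these 4 were not analysed here. Liver RNA came from C57BL/6 mice, an inbred strain, that ate a regular diet (RD) or a high fat diet (HFD) ad libitum for 2 days. Each diet had 3 biological replicates, each on its own array, and no genetic change or other agent is named for either group. All sample titles carry the letters NI, whose meaning no label explains, and the animals' age and sex were not used here. Values are log2 signals, on which a difference of 1 is a doubling of signal, and the number of arrays limits their precision.

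Complement tags microbes and debris for removal. Its classical pathway starts when C1q binds antibody complexes or other surfaces, its lectin pathway when mannose-binding lectins or ficolins bind sugars, and its alternative pathway turns over by itself and is stabilised by properdin; all of them lead to C3 and then to the membrane attack complex. Coagulation starts from tissue factor or from the contact system, runs through factor X and prothrombin, and ends in a fibrin clot, which plasmin dissolves. Hepatocytes make most of these plasma proteins, while C1q, properdin, ficolin A and the anaphylatoxin receptors are made chiefly by myeloid cells such as Kupffer cells, the resident macrophages of the liver, and factor VIII, von Willebrand factor and thrombomodulin by endothelium. Members were sorted by this background knowledge into 32 measured genes of hepatocyte origin and 11 of non-hepatocyte origin, of which 7 are myeloid and 4 endothelial or other. Several genes of the hepatocyte class, among them C2, C4b, Cfb and Pros1, are also expressed by other cells.

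After 2 days of HFD, 3 members rose and 2 fell. The complement genes C1qb and Cfp and the thrombin receptor gene Thbd rose by 1.56-fold to 1.68-fold, the clotting factor gene F11 fell by 1.63-fold and the complement inhibitor gene C4bp by 1.28-fold. All 3 that rose belong to the non-hepatocyte class and both that fell to the hepatocyte class. In the same limma fit, at a Benjamini-Hochberg adjusted p under 0.05, 3.11% of all genes rose and 2.24% fell, against 6.98% and 4.65% of the 43 members. An unadjusted p under 0.05 was reached by 16 members (37.2%) and by 19.7% of all genes. The 3 HFD values lay above the 3 RD values in 7 members and below them in 12, a separation seen upward in 14.0% and downward in 11.7% of all genes. The members were bright, with a median log2 signal of 12.15 against 7.54 over all genes. Of the 43, 42 lay above the all-gene median, so the shares over all genes are no background matched for signal. Among the brighter genes alone 15.6% were separated downward. The median difference, HFD minus RD, was -0.004 over the 43 members and -0.003 over all genes. With HFD replicate 2 left out 5 members rose, C1qa and C1qc besides the 3 named, and 1, F11, fell; without any other single array 0 or 1 rose and 0 fell, and the 5 called members kept their direction in each of these fits.

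**Figure D1:**
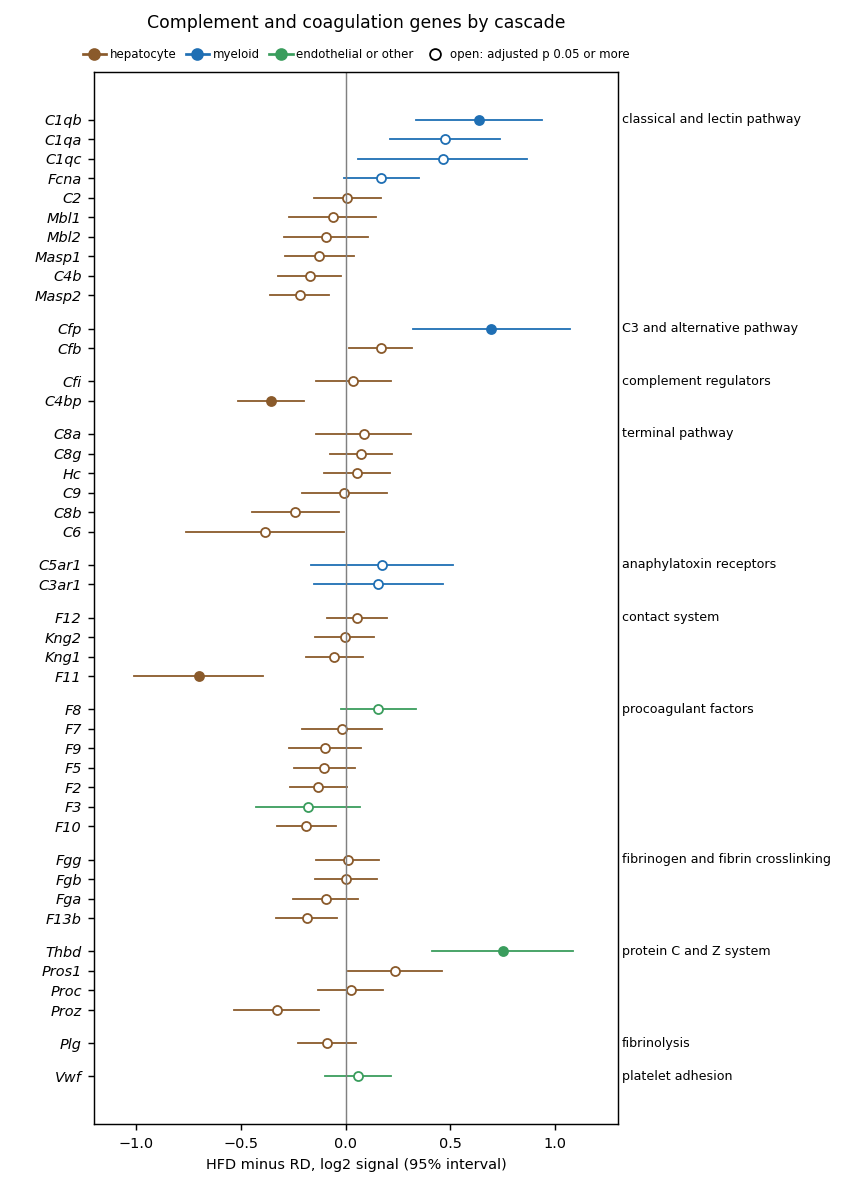
Difference in log2 signal, HFD minus RD, of the 43 measured genes (x axis, point with 95% interval from limma, 3 arrays per diet), sorted by cascade and coloured by the cell class that mainly makes each product. Filled points passed an adjusted p of 0.05, and they are C1qb, Cfp and Thbd on the right and C4bp and F11 on the left.

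Most differences were negative in the hepatocyte class and positive in the other. Of the 32 hepatocyte genes 21 had a negative difference (18 with median centring), with a median of -0.08, while 10 of the 11 non-hepatocyte genes had a positive one, with a median of 0.17. Over all 19938 genes 10133 differences were negative and 9805 positive. The all-gene median was 0.018 with median centring. All 7 myeloid genes were positive, with a median of 0.46, and the 4 endothelial or other genes had a median of 0.11. The hepatocyte median moved by at most 0.11 from the RD mean on any HFD array, and the myeloid median by 0.70, 0.22 and 0.50 on HFD replicates 1, 2 and 3. Sorted by system in place of origin, the 22 complement genes had a median of 0.05 and the 21 coagulation genes one of -0.05. The non-hepatocyte median was 0.32 among the brighter genes and 0.36 without HFD replicate 3, and the complement median turned to -0.019 without RD replicate 2 and to -0.0036 without HFD replicate 1. Differences between the lists were not tested.

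**Figure D2:**
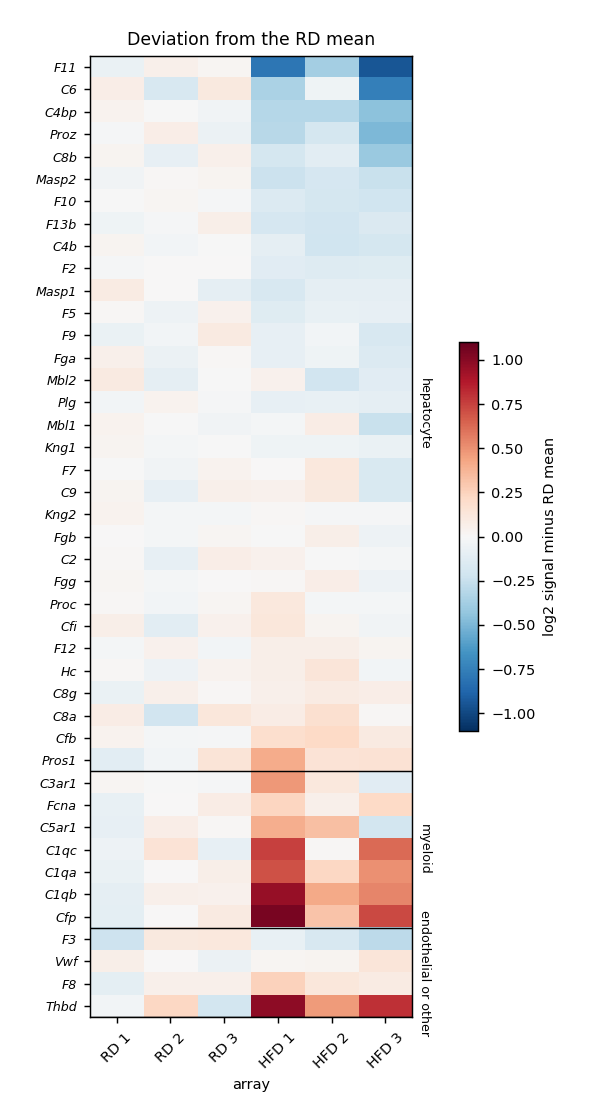
Log2 signal minus the gene's RD mean (colour) for each of the 43 genes (rows, in the classes hepatocyte, myeloid, and endothelial or other) on each of the 6 arrays (columns). The red block of C1qa, C1qb, C1qc, Cfp and Thbd is strongest on HFD replicate 1, and the blue of F11, C6, Proz and C8b on HFD replicate 3.

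C1q, the recognition molecule of the classical pathway, is built from the products of 3 neighbouring genes. C1qb (probe set 10517508) read 11.20, 11.36 and 11.35 on the RD arrays and 12.26, 11.72 and 11.84 on the HFD arrays. The diets did not overlap, and HFD replicate 1 stood highest. Its mean rose from 11.31 ± 0.09 to 11.94 ± 0.28 (SD, n = 3 each), a difference of 0.64 ± 0.13 (SE; limma adjusted p = 0.032). The call was kept without HFD replicate 1 or 2 and lost without any single RD array or HFD replicate 3 (adjusted p up to 0.119). C1qa (probe set 10517517) read 9.37, 9.44 and 9.51 in RD against 10.14, 9.66 and 9.94 in HFD. Its values were separated by diet as well, but the difference of 0.47 ± 0.12 missed the threshold (adjusted p = 0.054) and passed it without HFD replicate 2 (adjusted p = 0.019). C1qc (probe set 10517513) read 10.68, 10.89 and 10.65 in RD and 11.49, 10.75 and 11.37 in HFD. Here HFD replicate 2 lay inside the RD range, and the difference was 0.46 ± 0.18 (adjusted p = 0.191); without that array C1qc passed (adjusted p = 0.014). On all 3 genes HFD replicate 1 was the highest array and HFD replicate 2 the lowest HFD array.

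Properdin, the positive regulator of the alternative pathway, is encoded by Cfp (probe set 10603860). It read 10.33, 10.44 and 10.54 in RD and 11.49, 10.75 and 11.16 in HFD. Each HFD value was above each RD value, in the same order of HFD arrays as for C1q. The rise was 0.70 ± 0.16, or 1.62-fold (adjusted p = 0.048), and among the 6 fits with 1 array fewer the one lacking HFD replicate 2 kept the call (adjusted p from 0.0097 to 0.159). The other myeloid members gave smaller values that were not called. The lectin ficolin A gene Fcna differed by 0.17 ± 0.08 (adjusted p = 0.277). The receptors for the anaphylatoxins C3a and C5a, C3ar1 and C5ar1, had differences of 0.16 ± 0.13 and 0.17 ± 0.15. C3ar1 read 8.68, 8.66 and 8.65 in RD and 9.14, 8.79 and 8.54 in HFD, while C5ar1 lay between 6.89 and 7.05 in RD and read 7.38, 7.31 and 6.77 in HFD. For each receptor HFD replicate 3 fell below all RD arrays and the other HFD arrays lay above them, so the HFD group spanned the whole RD range. Without HFD replicate 1 the differences were -0.0033 for C3ar1 and 0.062 for C5ar1, and without HFD replicate 3 they were 0.30 and 0.36. Without HFD replicate 2 that of C5ar1 was 0.097.

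Markers of Kupffer cells and macrophages moved with the myeloid members. Of 14 such markers 7 rose and 0 fell, 13 had a positive difference, and their mean log2 signal was 9.63 to 9.72 on the RD arrays and 9.97 to 10.49 on the HFD arrays. The smallest p-values were those of Slc40a1 (0.61 ± 0.07), Cd5l (0.85 ± 0.12) and Timd4 (0.67 ± 0.11); the count of risers was 2 to 8 when 1 array was left out. Relative to the RD means, the marker median stood at 0.92, 0.35 and 0.51 on HFD replicates 1, 2 and 3, the same order as for the myeloid median. Gene by gene, HFD replicate 2 was the lowest HFD array in 13 of the 14 markers and 5 of the 7 myeloid members, against 34.2% of all genes. The same array was lowest in 9 of 11 lymphocyte, 7 of 12 endothelial, 6 of 11 stellate cell and 3 of 6 adipocyte markers. That held for 2 of 11 neutrophil and monocyte markers and 1 of 9 hepatocyte markers. Slc40a1 was lowest on HFD replicate 1, and C3ar1 and C5ar1 on HFD replicate 3. The mean shift of the 3 C1q genes less the mean shift of these markers was -0.00, -0.07 and 0.07 on the HFD arrays and -0.03 to 0.05 on the RD arrays. The C1q genes are 3 of the 7 myeloid members. On HFD replicates 1, 2 and 3 Fcna stood at 0.24, 0.06 and 0.22 and C3ar1 at 0.48, 0.12 and -0.13. C5ar1 stood at 0.40, 0.33 and -0.21. Each of these values lay below the marker median of its array. Cfp stood at 1.05, 0.31 and 0.73, above that median on HFD replicates 1 and 3 and below it on replicate 2. The C1q genes were set against the marker mean and the other genes against the marker median, so the yardsticks differ. In tissue RNA, more cells of a type and more RNA per cell cannot be told apart, and the part of the markers in the rise of C1qb and Cfp was not tested. None of 11 markers of neutrophils and monocytes and none of 11 of lymphocytes was called in limma, with 0 of each list at an unadjusted p under 0.05. Mean signals were 5.69 to 5.75 in RD and 5.76 to 5.87 in HFD for the former, and 6.30 to 6.45 and 6.24 to 6.74 for the latter. Of the former 0 and of the latter 2 lay above the all-gene median signal, against 13 of the 14 macrophage markers. At such dim signals a missing call does not show that these genes were unchanged. HFD replicate 1 was the highest HFD array in 10 of 11 lymphocyte markers, against 33.6% of all genes.

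**Figure D3:**
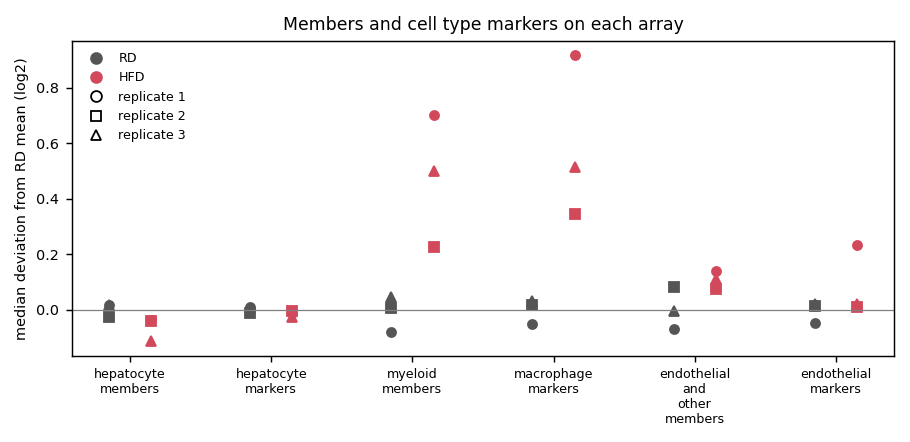
Median over each list of the log2 deviation from the RD mean (y axis) on each array, for members grouped by origin and for the matching cell type markers (x axis); grey is RD, red is HFD, and the symbol shape gives the replicate. The medians of myeloid members and macrophage markers share the order replicate 1, 3, 2 in HFD, and those of hepatocyte members and hepatocyte markers lie near 0.

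Thrombomodulin, the endothelial receptor that turns thrombin from a clotting enzyme into an activator of protein C, is encoded by Thbd (probe set 10488378), which had the largest rise among the members. It read 7.52, 7.77 and 7.35 in RD and 8.53, 8.01 and 8.35 in HFD, with no overlap. The difference was 0.75 ± 0.15, or 1.68-fold (adjusted p = 0.027); the call was kept without RD replicate 2 or HFD replicate 2 and lost without each other single array (adjusted p up to 0.095). Of 12 endothelial markers 0 were called in limma, 2 had an unadjusted p under 0.05, and the median difference was 0.06. Their mean signal was 10.49 to 10.57 in RD and 10.55 to 10.71 in HFD. HFD replicate 1 was the highest HFD array in 10 of the 12, against 33.6% of all genes. Against its RD mean Thbd stood higher by 0.98, 0.47 and 0.80 on HFD replicates 1, 2 and 3, in the same order as the macrophage marker median. The endothelial marker median had that order too, at 0.23, 0.012 and 0.021. The other members of this class were not called. F8, the cofactor of factor IX that sinusoidal endothelium makes, read 10.35, 10.51 and 10.52 in RD and 10.71, 10.58 and 10.55 in HFD, a separation of 0.16 ± 0.08 (adjusted p = 0.327). Vwf, which tethers platelets to injured vessel walls, differed by 0.06 (95% interval -0.10 to 0.22), and the tissue factor gene F3, the starter of the extrinsic pathway, by -0.18 (95% interval -0.43 to 0.07). Leaving out RD replicate 1 gave 0.10 for F8 and -0.29 for F3.

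Factor XI, the contact system protease that activates factor IX, showed the largest fall. F11 (probe set 10578427) read 10.39, 10.52 and 10.49 in RD and 9.67, 10.10 and 9.53 in HFD. All HFD values lay below RD, HFD replicate 2 the least so. The difference was -0.70 ± 0.13 (adjusted p = 0.025), kept without HFD replicate 2 and lost without each other single array (adjusted p up to 0.093). The rest of the contact system was not called. F12, the zymogen of factor XIIa, differed by 0.05 (95% interval -0.09 to 0.20), and the kininogen genes Kng1 and Kng2, sources of bradykinin, by -0.05 (-0.19 to 0.08) and -0.00 (-0.14 to 0.14). Kng1 read 14.03, 13.99 and 14.00 in RD and 13.96, 13.96 and 13.94 in HFD, a small step without overlap. Kng1 and Kng2 are close paralogs, so their separate values are uncertain.

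C4b-binding protein, the fluid-phase inhibitor that helps factor I to destroy C4b, is encoded by C4bp (probe set 10357516). It read 12.82, 12.77 and 12.74 in RD and 12.46, 12.47 and 12.32 in HFD. The groups were well apart relative to their spread (SD of 0.04 in RD and 0.08 in HFD), and the fall was -0.36 ± 0.07 (adjusted p = 0.026). With only 5 arrays it did not pass whichever array was dropped (adjusted p 0.056 to 0.096). Cfi, which encodes factor I itself, differed by 0.04 (95% interval -0.14 to 0.22).

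**Figure D4:**
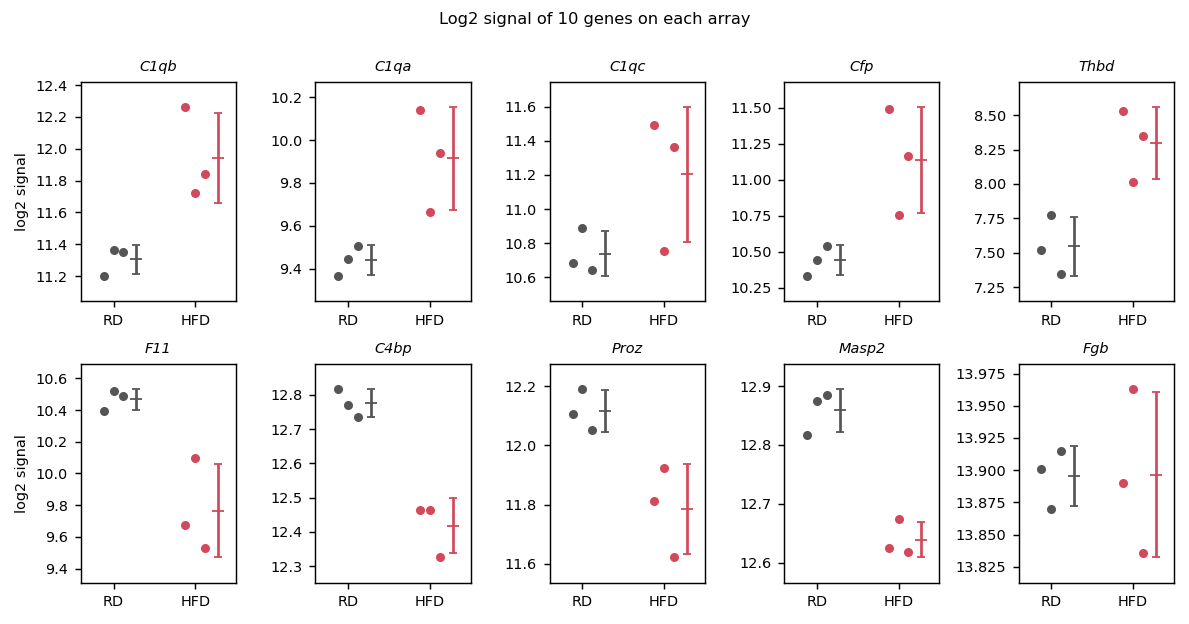
Log2 signal (y axis, scaled per gene) on each array for 10 genes, with points for the 3 RD (grey) and 3 HFD (red) arrays in order of replicate and a bar for mean ± SD. C1qb, Cfp and Thbd are higher and F11 and C4bp lower in HFD with no overlap, C1qa, Proz and Masp2 are separated without passing an adjusted p of 0.05, and C1qc and Fgb overlap.

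Promoter sequences of the genes that passed, and of C1qc as the neighbour of C1qb, are given to show what lies just before their start sites. RefSeq promoters of GRCm38.p6 were matched by symbol for 32 of the 43 members, not including Thbd. Each run holds the 200 bases before the start, 5′ to 3′ on the gene's strand, at chr4:136886201-136886400 for C1qb, chr4:136892915-136893114 for C1qc, chrX:20931556-20931755 for Cfp, chr1:130661619-130661818 for C4bp and chr8:45262032-45262231 for F11, with each gene on the minus strand. Capitals mark matches on either strand to short motifs of myeloid and hepatocyte transcription factors: GAGGAA for PU.1, GTTAAT for HNF1, TTGCNNAA for C/EBP, TGTTTAC for FOXA, ATTGAT for ONECUT and CAAAGTNCA for HNF4.
C1qb: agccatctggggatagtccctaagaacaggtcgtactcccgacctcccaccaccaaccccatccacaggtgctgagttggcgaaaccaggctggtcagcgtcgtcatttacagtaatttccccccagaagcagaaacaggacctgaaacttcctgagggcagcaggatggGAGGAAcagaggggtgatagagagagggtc
C1qc: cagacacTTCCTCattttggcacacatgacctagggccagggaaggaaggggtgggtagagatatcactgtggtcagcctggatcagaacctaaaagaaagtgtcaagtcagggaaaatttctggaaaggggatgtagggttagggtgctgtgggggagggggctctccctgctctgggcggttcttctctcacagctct
Cfp: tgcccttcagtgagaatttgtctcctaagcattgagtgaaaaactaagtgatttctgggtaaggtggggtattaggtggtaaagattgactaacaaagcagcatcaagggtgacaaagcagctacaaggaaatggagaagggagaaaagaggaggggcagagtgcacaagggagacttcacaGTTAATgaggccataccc
C4bp: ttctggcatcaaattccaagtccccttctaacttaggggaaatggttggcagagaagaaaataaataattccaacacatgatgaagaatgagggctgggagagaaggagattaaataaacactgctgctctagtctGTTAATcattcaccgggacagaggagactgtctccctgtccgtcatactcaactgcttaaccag
F11: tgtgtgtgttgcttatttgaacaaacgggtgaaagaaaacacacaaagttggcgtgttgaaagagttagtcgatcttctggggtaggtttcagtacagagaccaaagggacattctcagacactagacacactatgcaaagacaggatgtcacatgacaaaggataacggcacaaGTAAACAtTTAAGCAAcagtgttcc

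A match describes letters and is not a shown binding site. GAGGAA was found in 19.0% of 32851 promoters of this length and in C1qb, C1qc and Fcna of 8 non-hepatocyte members, against 2 of 24 hepatocyte members. GTTAAT was present in 5.06% of all promoters, in 6 of the 24 hepatocyte members and in Cfp. TTGCNNAA was present in 7.47% of all promoters and in 6 of the 24, F11 included. In F11 the C/EBP match overlapped no other motif and stood next to the FOXA match, a motif found in 2.51% of all promoters and in 1 of the 24. ATTGAT occurred in 5.18% of all promoters and in 4 of the 24, and CAAAGTNCA in 0.959% and in 1, F9.

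Messages of liver transcription factors were set beside these genes from a list of 13, of which 11 were measured. In it 3 fell and 0 rose: Foxa3 (-0.82 ± 0.08), Cebpa (-0.83 ± 0.10) and Prox1 (-0.77 ± 0.13). The first pair held whichever array was left out, and Prox1 was lost without RD replicate 2 or HFD replicate 3 (adjusted p up to 0.071). Named after its values were seen, Onecut1 read 11.63, 10.46 and 10.74 in RD and 9.82, 10.06 and 8.54 in HFD, a difference of -1.46 ± 0.41 (adjusted p = 0.087). Likewise named afterwards, Hnf4a differed by 0.04 ± 0.06. So named too, Foxa1 differed by -0.21 ± 0.16, Foxa2 by 0.00 ± 0.11, Cebpb by 0.14 ± 0.09 and Cebpd by -0.04 ± 0.10, all uncalled. The falls of Foxa3 and Cebpa were thus not shared by these relatives. Any part of these factors in the members' differences was not tested.

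Among the starting enzymes of the classical and lectin pathways made by hepatocytes, the differences were small. Masp2, the lectin pathway protease that cleaves C4 and C2, read 12.82, 12.87 and 12.89 in RD and 12.63, 12.67 and 12.62 in HFD. The diets were separated, but -0.22 ± 0.06 missed the threshold (adjusted p = 0.087). Its relative Masp1 differed by -0.13 ± 0.07, and the mannose-binding lectin genes Mbl1 and Mbl2 by -0.06 and -0.09, all with overlapping diets. C4b, the classical pathway component C4, was separated at -0.17 ± 0.07 (adjusted p = 0.195); a near-identical mouse copy makes its value uncertain. C2, its partner in the convertase, differed by 0.01 (95% interval -0.15 to 0.17). In the alternative pathway Cfb, the factor B gene, read 12.92, 12.86 and 12.86 in RD and 13.07, 13.10 and 12.98 in HFD. It was the hepatocyte complement gene that lay higher in HFD without overlap, and its difference of 0.17 ± 0.07 was not called (adjusted p = 0.200).

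The terminal pathway builds the membrane attack complex, and 0 of its 6 genes were called in limma, with 2 at an unadjusted p under 0.05. C6 read 12.42, 12.17 and 12.45 in RD and spanned 11.59 on HFD replicate 3 to 12.30 on HFD replicate 2. Only the latter fell inside the RD range, and the difference was -0.38 ± 0.16 (adjusted p = 0.245), or -0.20 without HFD replicate 3 and -0.55 without HFD replicate 2. C8b was separated, at 13.54, 13.42 and 13.56 against 13.31, 13.39 and 13.09, with -0.24 ± 0.09 (adjusted p = 0.189), or -0.15 without HFD replicate 3. Its partner chains of the C8 protein lay the other way, C8a at 0.09 (95% interval -0.14 to 0.31) and C8g at 0.07 (-0.08 to 0.22). Hc, which encodes C5, differed by 0.05 (-0.11 to 0.21) and C9, the pore-forming subunit, by -0.01 (-0.21 to 0.20).

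The differences of the procoagulant factors of hepatocytes were small, and 0 of the 7 procoagulant genes, F3 and F8 included, were called in limma, with 1 at an unadjusted p under 0.05. F10, the start of the common pathway, read 11.72, 11.75 and 11.71 in RD and 11.58, 11.54 and 11.51 in HFD. Its groups were separated, with -0.19 ± 0.06 (adjusted p = 0.131). Prothrombin, F2, read 13.28, 13.30 and 13.30 against 13.17, 13.15 and 13.16, also apart, with -0.13 ± 0.06 (adjusted p = 0.272). The cofactor F5 was separated at -0.10 ± 0.06 (adjusted p = 0.444), while F9 at -0.10 ± 0.07 and F7 at -0.02 ± 0.08 overlapped. F7 turned positive with median centring (0.0033).

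Fibrinogen, the precursor of fibrin and a classic acute phase protein, is assembled from the chains of Fga, Fgb and Fgg. Fgb read 13.90, 13.87 and 13.92 in RD and 13.89, 13.96 and 13.84 in HFD. Its difference was 0.00 (95% interval -0.15 to 0.15), that of Fgg 0.01 (-0.14 to 0.16) and that of Fga -0.10 (-0.25 to 0.06), which read 12.48, 12.36 and 12.44 in RD and 12.34, 12.38 and 12.28 in HFD. Fga was the member with a further probe set, and the pair disagreed in size. The brighter probe set, used above, overlapped between diets, while the dimmer one (10492755) read 10.95, 10.77 and 10.69 in RD and 10.33, 10.25 and 10.53 in HFD, a difference of -0.44 ± 0.10. F13b, the carrier subunit of the enzyme that crosslinks fibrin, read 11.48, 11.52 and 11.59 in RD and 11.34, 11.32 and 11.37 in HFD. Those values did not overlap, with -0.19 ± 0.06 (adjusted p = 0.151).

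The hepatocyte genes of the protein C and Z systems, which restrain clotting, lay on both sides of 0 and were not called. Proz, a vitamin K dependent cofactor for the inhibition of factor Xa, read 12.10, 12.19 and 12.05 in RD and 11.81, 11.92 and 11.62 in HFD. The groups did not overlap, and -0.33 ± 0.09 missed the threshold (adjusted p = 0.077). Pros1, the protein S gene and cofactor of activated protein C, lay higher at 10.53, 10.27 and 10.28 against 10.01, 10.09 and 10.26, with 0.24 ± 0.10 (adjusted p = 0.224), or 0.15 without HFD replicate 1. Proc, protein C itself, differed by 0.02 (95% interval -0.13 to 0.18). Plg, the precursor of the clot-dissolving plasmin, read 13.81, 13.88 and 13.83 in RD and 13.75, 13.76 and 13.74 in HFD. These values were separated by a small step of -0.09 ± 0.06 (adjusted p = 0.478).

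Many hepatocyte members had the same order among the HFD arrays. In 18 of the 32, HFD replicate 2 was highest and replicate 3 lowest, an order held by 14.7% of all genes. HFD replicate 3 was the lowest HFD array in 22 of the 32 (68.8%), against 32.3% of all genes. It was also the lowest in 7 of 9 general hepatocyte markers (77.8%) and in 11 of 14 other complement proteins (78.6%). F11, C6, Proz, C8b and Onecut1 had replicate 2 highest and 3 lowest. All 6 terminal pathway genes were highest on HFD replicate 2. Of 12 general hepatocyte markers 9 were measured, 0 were called in limma with 2 at an unadjusted p under 0.05, and their mean signal was 13.95 to 13.96 in RD and 13.92 to 13.96 in HFD. The order was described after the values were seen, and what the HFD arrays differ in was not tested.

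Related genes outside the list were counted in the same fit. Of 14 other complement proteins 2 fell, the C1 protease C1s1 (-0.33 ± 0.07) and the anaphylatoxin-inactivating carboxypeptidase subunit Cpn2 (-0.30 ± 0.07); neither passed in a fit of 5 arrays (adjusted p up to 0.141), and Cpn2 was lost with median centring too. The pentraxin gene Apcs had -0.47 ± 0.12 (adjusted p = 0.063). Of 13 complement receptors and membrane regulators 2 rose, Cd93 (0.53 ± 0.07), a surface glycoprotein of endothelial and myeloid cells, and Itgb2 (0.84 ± 0.18), the shared chain of the complement receptor integrins. Cd93 passed whichever array was left out, and Itgb2 only without HFD replicate 1 or 2 (adjusted p up to 0.110). Itgam, the partner chain in complement receptor 3, had 0.23 ± 0.08 (adjusted p = 0.149).

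Among 9 coagulation inhibitors 0 were called in limma, with 1 at an unadjusted p under 0.05, Procr, the endothelial protein C receptor, at 0.40 ± 0.10 (adjusted p = 0.058). Serpind1, heparin cofactor II, differed by -0.09 ± 0.06. Gas6, counted in this list though not an established inhibitor of clotting, differed by 0.14 ± 0.10. Of 8 fibrinolysis genes 2 rose: Anxa2, part of a cell surface assembly site for plasmin, by 1.28 ± 0.10 and Thbs1 by 0.77 ± 0.18. The former held without any single array, and the latter passed only without HFD replicate 3 and was lost with quantile normalization (adjusted p up to 0.129 over the fits of 5 arrays). Plaur, the urokinase receptor, had 0.21 ± 0.09. In the vitamin K list of 7 genes Nqo1, a quinone reductase, rose by 1.59 ± 0.14, while Vkorc1, the reductase that recycles vitamin K, was separated at 0.25 ± 0.07 without passing (adjusted p = 0.077) and Vkorc1l1 had 0.16 ± 0.08. None of 9 thrombin receptor and platelet genes was called in limma, with 0 at an unadjusted p under 0.05; Gp9, F2rl2 and Pf4 had the smallest p, at -0.08, -0.09 and -0.07. Stellate cell and adipocyte markers gave 0 calls among 11 and 6, with 1 of each list at an unadjusted p under 0.05.

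**Figure D5:**
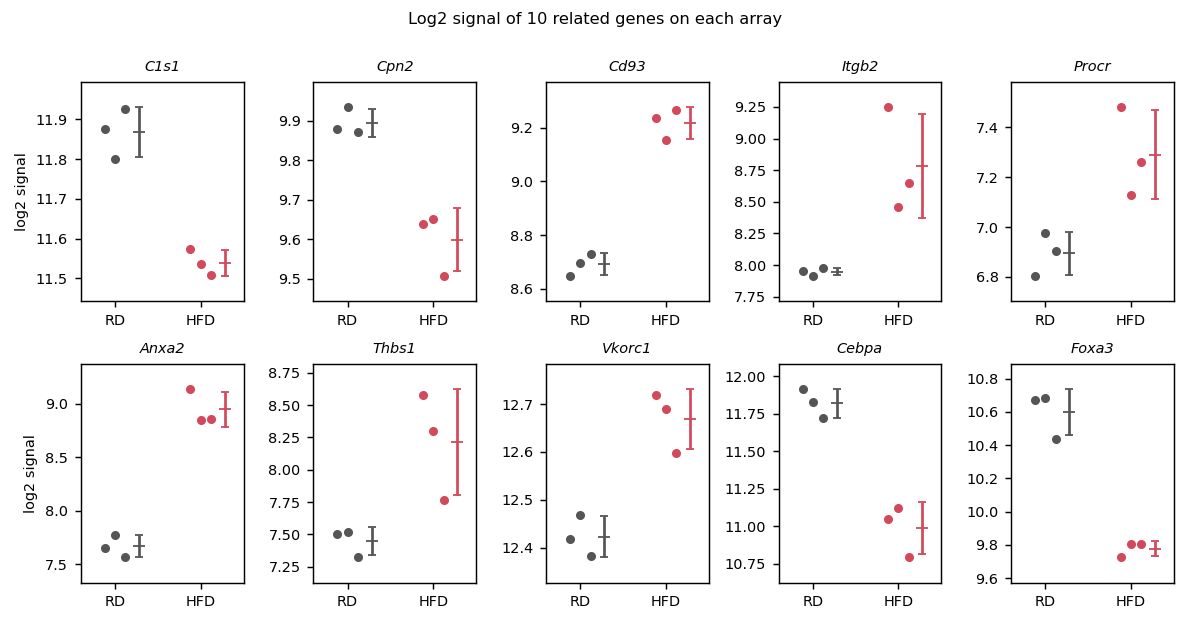
Log2 signal (y axis, scaled per gene) on each array for 10 genes of the related lists, with points for 3 RD (grey) and 3 HFD (red) arrays in order of replicate and a bar for mean ± SD. Cd93 and Anxa2 rose and Cebpa and Foxa3 fell with clear gaps between the diets, and Procr and Vkorc1 were separated without passing an adjusted p of 0.05.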

How the data were processed

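The members and gene lists were chosen with earlier results of these data known. Per the labels' protocols, frozen liver gave RNA that a GeneChip WT terminal labelling kit prepared for the arrays. The deposited table holds log2 signals of 35512 probe sets on 6 arrays; base 2 was inferred from their range. The authors' summarisation and normalization, not given in the sources used here, could move any value. The platform's annotation gave 21789 probe sets 1 symbol, and 19938 genes remained after the brightest probe set of each, by its mean over the arrays, was kept. Dim probe sets were not filtered out, and detection calls and scan batches were not used here, so signal over background was not assessed. Diet alone was fitted in limma 3.58.1 (R 4.3.3; lmFit and eBayes), as a two-sided test; p-values were adjusted by Benjamini and Hochberg's method across the 19938 genes, and 0.05 was the threshold. Each difference, HFD minus RD, carries limma's moderated SE, and 95% intervals come from the same fit. The steps were tested on simulated data. Calls were required there at a log2 difference of 2, larger than that of any member, and not at smaller ones. Each p-value tests the diet difference against the spread between these replicates, with each gene's variance moderated by that of all genes. Array medians were 7.06 to 7.11, and r between arrays across genes, which are not independent, was 0.996 to 0.997 for arrays of the same diet and 0.991 to 0.994 otherwise. Genes are named by rule: each member may be named, with every array's value for those called and up to 3 per cascade with the smallest p, and up to 3 genes of each related list; other genes are marked, and arrays of C1qc, C3ar1 and Fgb were added after their values were seen. Alternatives were quantile normalization, median centring, a restriction to brighter genes, averaging a gene's probe sets, a trended robust prior, array weights, a replicate block and each array left out.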

Additional observations from a re-analysis of the deposited data

How the results depend on the processing

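The 3 higher and 2 lower members became 4 and 4 among the brighter genes (42 of 43 members and 9969 genes tested). With a trended robust prior they became 3 and 5. Counts over all genes are not given for either fit, so these member counts have no background here. With the replicate number as a block the members gave 0 and 1, where all genes gave 318 higher and 245 lower. The block left F11 as its call. Deviations from the diet mean had r of -0.107, 7.2e-05 and 0.117 between same-numbered arrays. Between differently numbered ones r was -0.118 to 0.127. Values centred on 3 arrays per diet cannot settle whether the numbers mark a pairing. Leaving out 1 array gave 0 to 5 higher and 0 to 1 lower members, and 197 to 371 higher and 178 to 273 lower genes, with fewer arrays in each fit. The non-hepatocyte median was 0.32 among the brighter genes and 0.14 to 0.36 with 1 array left out; those of the hepatocyte, complement and coagulation genes were -0.089 to -0.044, -0.019 to 0.076 and -0.083 to -0.041 there. Cfp was lost with the trended prior (adjusted p = 0.053) and with array weights (adjusted p = 0.068). C1qa passed with median centring, among the brighter genes and with the trended prior, Masp2 and Proz with the latter pair, and F10 with the trended prior (adjusted p = 0.048). Signs turned for 11 uncalled members of the 43. With 1 array left out, C2 ran from -0.039 to 0.046, C3ar1 from -0.0033 to 0.30, C8a from -0.016 to 0.15, C9 from -0.063 to 0.076, Cfi from -0.021 to 0.076, F7 from -0.083 to 0.059, Fgb from -0.032 to 0.032, Fgg from -0.021 to 0.043, Kng2 from -0.016 to 0.017, Mbl1 from -0.13 to 0.029 and Proc from -0.021 to 0.048. With all 6 arrays, C9 was 0.058 with quantile normalization, 0.015 with median centring and 0.018 with array weights, Kng2 was 0.033 and 0.017 with the first pair, and F7 was 0.0033 and 0.014 with the latter pair. In the related lists C1s1 and Cpn2 were lost with the block too. Over all settings 18 to 26 of the 32 hepatocyte genes had a negative difference, while the median over all genes tested ran from -0.012 to 0.021. With 6 arrays 10 to 13 of them lay lower without overlap, against 9.25% to 15.6% of all genes; with 5 arrays these were 12 to 16 and 15.3% to 19.8%. These counts were described after the values were seen.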
